A study of Homo sapiens with 6 samples.

Results

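The genes described were the SR proteins, the hnRNPs, the TRA2 proteins and the CLK kinases, which together choose and package exons in human cells. Members were the protein-coding rows of the count table whose symbol is SRSF with a number, begins with HNRNP and a further letter, or is CLK1, CLK2, CLK3, CLK4, TRA2A or TRA2B. Of 61496 rows in the table, 170 carried such a symbol and 45 of these were protein-coding, namely 12 SR proteins, 27 hnRNPs, 2 TRA2 proteins and 4 CLK kinases. A total of 41 members had enough counts to be tested. The remaining 4, HNRNPCL1, HNRNPCL2, HNRNPCL3 and HNRNPCL4, had 0 counts in all 6 libraries.

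RNA was sequenced from U251, an established human glioma cell line, as 3 libraries of untreated cells (control 1 to 3) and 3 libraries of cells exposed to Sev (sevoflurane, an inhaled anesthetic) gas for 2 h (Sev 1 to 3). Both groups were grown in the same serum-containing medium. A legend in the paper names 5.1% Sev for this comparison. The library labels themselves give no concentration, and the deposited protocol lists 1.7% and 3.4% besides. The labels do not say that the libraries came from separate cultures, and the general statement on independent experiments in the methods does not name the sequencing. P-values therefore measure the spread between these libraries, which may be technical.

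Libraries held 38624292 to 46318311 counts, and 35 members had over 1000 counts in each of them. All 8 markers listed for a glioma cell line had over 100 counts in every library. Marker levels were summed as CPM (normalised counts), scaled for these sums by library size alone. The glioma sum, most of it VIM, was 9056 to 10431 CPM in control and 9648 to 10317 CPM in Sev. Single markers moved within that sum without overlap, with SOX2 at 11195 to 13607 counts in control and 6475 to 6896 in Sev, S100B at 725 to 1206 and 389 to 400, and CD44 at 15391 to 19494 and 28173 to 29702. Among immune markers, CD3E was at 0 in every library, PTPRC reached at most 12 counts, and CD68 held 88 to 198. The summed levels of the 3 endothelial markers (7.30 to 9.65 CPM in control, 7.04 to 9.54 in Sev) and of the 3 oligodendrocyte markers (5.35 to 8.10 and 6.66 to 8.52 CPM) overlapped. The epithelial markers EPCAM and CDH1 reached at most 5 and 8 counts. The summed levels of 2 other marker lists were higher in Sev without overlap, at 21.2 to 23.0 against 26.6 to 29.3 CPM for the 3 epithelial markers, nearly all of it KRT18, and at 149 to 168 against 177 to 188 CPM for the 4 neuronal markers. Of these, TUBB3 was higher in Sev (2849 to 4164 counts against 5036 to 5247), MAP2 was lower (2498 to 2977 against 1935 to 2370), and RBFOX3 held 42 to 76 counts. Their part in the results was not tested. In bulk RNA of this kind, fewer cells that express a gene and less of its RNA per cell cannot be told apart.

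As background, SR proteins bind exonic enhancers through RNA recognition motifs and recruit the splicing machinery through a domain rich in arginine and serine, while hnRNPs coat nascent transcripts and often oppose exon inclusion. CLK kinases phosphorylate the arginine-serine domain in the nucleus and release SR proteins from nuclear speckles, and TRA2 proteins are SR-like activators with a domain at each end. Many of these genes hold a conserved poison exon or a retained intron in their own transcripts, through which the level of functional mRNA is adjusted. In the annotation used here (GENCODE 29), a transcript marked for nonsense-mediated decay was listed for 12 of 12 SR genes, 2 of 2 TRA2 genes, 3 of 4 CLK genes (not CLK2) and 14 of 27 hnRNP genes, which is 68.9% of the members against 35.7% of 19887 protein-coding genes. A retained-intron transcript was listed for 62.2% of the members and 46.3% of protein-coding genes. Counts per gene add up all transcripts of a gene, so productive and unproductive forms cannot be told apart in the values given here.

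Promoter sequences are shown for CLK kinases and for several SR protein and hnRNP genes with large changes in either direction, so that their promoters can be compared. RefSeq (GRCh38.p14) windows of 250 bases before the annotated start were found for 37 of the 41 tested members. Each sequence below runs 5′ to 3′ on the strand of its gene. It is the longest stretch of that window outside every exon annotated in GENCODE 29. The windows of CLK2 and CLK4 lie inside the annotated extent of these genes. Of the GENCODE transcripts, 2 of 7 for CLK2 and 11 of 15 for CLK4 start near the RefSeq start used. The windows used for CLK3 and SRSF10 held no stretch outside annotated exons long enough to print, and SRSF2 had no window. Capitals mark matches, on either strand (so that the reverse complement is marked too), to the GC box GGGCGG, the E-box CACGTG, the CCAAT box, the TATA box TATAAA and the ETS site CCGGAAG.
CLK1 promoter, chr2:200864745-200864908, minus strand: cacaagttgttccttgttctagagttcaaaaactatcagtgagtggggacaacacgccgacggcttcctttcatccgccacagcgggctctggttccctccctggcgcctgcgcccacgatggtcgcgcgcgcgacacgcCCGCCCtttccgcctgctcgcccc
CLK2 promoter, chr1:155273517-155273754, minus strand: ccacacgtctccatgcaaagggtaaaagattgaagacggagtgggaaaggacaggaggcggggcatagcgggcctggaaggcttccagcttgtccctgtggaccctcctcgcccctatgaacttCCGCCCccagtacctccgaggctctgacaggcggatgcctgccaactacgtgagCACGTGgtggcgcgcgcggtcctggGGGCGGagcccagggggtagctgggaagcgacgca
CLK4 promoter, chr5:178627115-178627300, minus strand: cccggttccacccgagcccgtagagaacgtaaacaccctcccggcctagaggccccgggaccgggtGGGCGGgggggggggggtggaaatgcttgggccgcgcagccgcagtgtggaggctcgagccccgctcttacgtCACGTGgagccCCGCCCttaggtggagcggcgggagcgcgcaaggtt
SRSF4 promoter, chr1:29181988-29182150, minus strand: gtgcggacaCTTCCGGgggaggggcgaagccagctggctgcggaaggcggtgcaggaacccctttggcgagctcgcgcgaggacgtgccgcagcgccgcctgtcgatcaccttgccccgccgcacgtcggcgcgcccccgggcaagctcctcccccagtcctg
SRSF6 promoter, chr20:43457646-43457895, plus strand: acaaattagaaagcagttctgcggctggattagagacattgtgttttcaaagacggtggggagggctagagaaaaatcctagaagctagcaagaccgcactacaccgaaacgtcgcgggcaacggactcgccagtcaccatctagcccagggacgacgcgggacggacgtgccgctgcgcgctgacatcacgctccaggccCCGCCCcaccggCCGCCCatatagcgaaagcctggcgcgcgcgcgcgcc
SRSF12 promoter, chr6:89118082-89118321, minus strand: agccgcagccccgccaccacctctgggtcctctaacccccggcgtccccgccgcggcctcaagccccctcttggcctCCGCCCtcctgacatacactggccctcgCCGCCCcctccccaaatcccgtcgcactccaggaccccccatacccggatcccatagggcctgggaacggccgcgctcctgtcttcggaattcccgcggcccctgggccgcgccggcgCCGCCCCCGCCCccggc
HNRNPC promoter, chr14:21269495-21269692, minus strand: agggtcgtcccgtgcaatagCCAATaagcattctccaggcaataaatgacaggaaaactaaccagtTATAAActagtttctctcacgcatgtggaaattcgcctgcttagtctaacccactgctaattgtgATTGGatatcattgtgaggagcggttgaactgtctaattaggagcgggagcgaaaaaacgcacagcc

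All 4 CLK genes held a GC box in at least 1 of their full windows, and CLK2 and CLK4 each held an E-box as well. SRSF12, which fell, held 4 GC boxes, SRSF6, which rose, held 2, and the printed stretch of SRSF4, which rose too, held an ETS site. HNRNPC, which rose, was the one of those printed with a TATA box, beside 2 CCAAT boxes. Over the 53 windows of the 37 genes, 64.2% held a GC box, against 42.6% of all 35116 RefSeq windows. The CCAAT box was in 43.4% against 32.0%, the E-box in 17.0% against 6.3%, the TATA box in 11.3% against 10.7% and the ETS site in 9.4% against 8.5%. The cAMP response element TGACGTCA and the composite TGATGNAA were searched on both strands too and were in 0 of the 53 windows, against 1.6% and 3.1% of all windows. The median GC content was 65.6% in member windows and 58.0% in all windows. A match describes letters, not a bound site.

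To see how these genes responded to Sev, counts were compared between the groups with edgeR's quasi-likelihood test. A gene was called where its Benjamini-Hochberg adjusted p over all 27514 tested features was under 0.05. Of the 41 tested members, 17 rose, 5 fell and 19 passed in neither direction. Among all tested protein-coding genes 25% were called higher and 21% lower (22.1% and 21.5% of all features), beside 41.5% and 12.2% of the members. With library size as the only scaling, the 6094 features called higher and 5920 called lower became 4665 and 7502. The median log2 fold change was 0.20 over the members, 0.04 over protein-coding genes and -0.01 over all features. The member median became 0.059, with 14 called higher and 7 lower, when library size was the only scaling. The groups did not overlap for 22 members on the higher side and 7 on the lower side, where 31.2% and 26.6% of protein-coding genes showed the same. No member passed a log2 fold change of 1 upwards with an unadjusted p under 0.05 (9.07% of protein-coding genes did), and 2 passed it downwards, CLK2 and SRSF12 (7.62% of protein-coding genes).

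**Figure D1:**
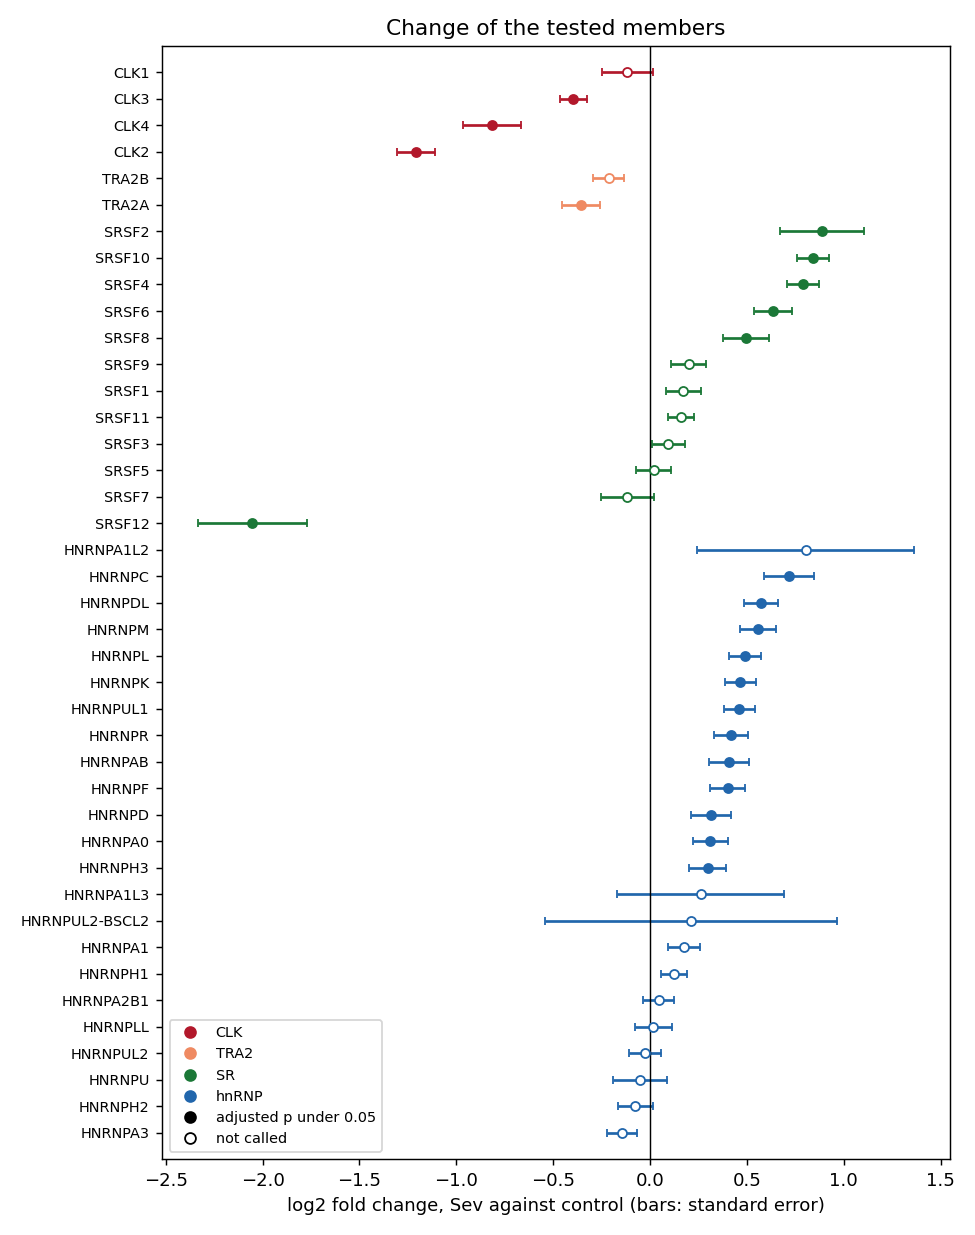
Log2 fold change of each of the 41 tested members (horizontal axis, Sev against control, bars are the standard error), coloured by family, with filled points for an adjusted p under 0.05. All CLK and TRA2 points lie left of 0, most SR and hnRNP points lie right of it, and SRSF12 lies farthest left at -2.05.

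Counted by family, CLK kinases had 3 of 4 members lower and none higher, with a median log2 fold change of -0.61. TRA2 proteins had 1 of 2 lower, with a median of -0.28. SR proteins had 5 of 12 higher and 1 lower, with a median of 0.18, and hnRNPs had 12 of 23 higher and none lower, with a median of 0.31. With library size as the only scaling, the median was 0.045 for SR proteins, with the same counts of calls, and 0.171 for hnRNPs, with 9 higher and 1 lower. Summed as FPKM (fragments per kilobase of gene length, scaled to the library total, as deposited), CLK mRNA went from 31.3 ± 2.99 in control to 16.9 ± 1.64 in Sev and TRA2 mRNA from 45.1 ± 1.88 to 33.9 ± 3.92 (SD, n = 3 libraries per group). SR mRNA went from 191.0 ± 8.0 to 225.0 ± 14.7 FPKM and hnRNP mRNA from 637 ± 31.2 to 720.0 ± 37.0 FPKM. No difference between families was tested. None of these 4 sums overlapped between the groups. With 3 libraries on each side the smallest exact permutation p is 0.1, so no p is given for them.

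Among the kinases, CLK2 changed most. CLK2 (chr1:155262868-155278491, GRCh38) stood at 84.3, 74.7 and 75.7 CPM in control 1 to 3 and at 34.8, 30.7 and 36.1 CPM in Sev 1 to 3. Every Sev library was under every control library by a wide gap. Its level fell 2.31-fold, from 78.2 ± 5.27 to 33.9 ± 2.86 CPM (SD, n = 3), a log2 fold change of -1.21 (SE 0.0976, edgeR adjusted p = 0.000155). It was also the member with the smallest p among those that fell. CLK2 phosphorylates SR proteins and has a further known role in restraining gluconeogenesis in liver.

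CLK4 was the scarcest kinase. Its level was 15.3, 13.98 and 15.2 CPM in control and 8.68, 6.92 and 9.64 CPM in Sev. The groups were far apart here as well, with 554 to 740 counts per library in control and 260 to 382 in Sev. CLK4 fell by 0.82 on the log2 scale (SE 0.149, edgeR adjusted p = 0.00366).

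CLK3 (chr15:74598500-74645414) was the most even kinase between libraries of a group, at 103, 106 and 101 CPM in control and 78.0, 79.8 and 77.7 CPM in Sev. The small spread set the groups clearly apart although the change was modest. Its log2 fold change was -0.40 (SE 0.0698, edgeR adjusted p = 0.00317). CLK3 is abundant in testis and acts on the same substrates.

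CLK1, the best studied kinase of the family, whose own transcript is partly held in the nucleus with retained introns, was at 50.9, 38.0 and 42.0 CPM in control and 44.9, 36.4 and 39.4 CPM in Sev. Its groups overlapped, with control 1 highest and Sev 2 lowest. The log2 fold change was -0.12 (SE 0.133, edgeR adjusted p = 0.503). Whether CLK1 differed in response from the other kinases was not tested.

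The make-up of CLK mRNA shifted with these changes. By deposited FPKM, CLK2 made up 57.8%, 58.9% and 58.0% of the CLK sum in control and 41.2%, 41.5% and 44.0% in Sev. CLK1 made up 22.9% ± 1.8 in control and 35.4% ± 2.0 in Sev (SD, n = 3), without overlap. In control the order was CLK2, CLK1, CLK3, CLK4 with no overlap between neighbours, at 18.2, 7.20, 4.29 and 1.58 FPKM. In Sev, CLK2 (7.13 ± 0.833 FPKM) and CLK1 (5.99 ± 0.734 FPKM) overlapped. The order rests on the gene lengths behind the deposited FPKM, which counts and FPKM together place at 25.3 kb for CLK3, 9.89 kb for CLK4, 6.39 kb for CLK1 and 4.51 kb for CLK2. By counts alone CLK3 was the highest of the family in both groups.

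**Figure D2:**
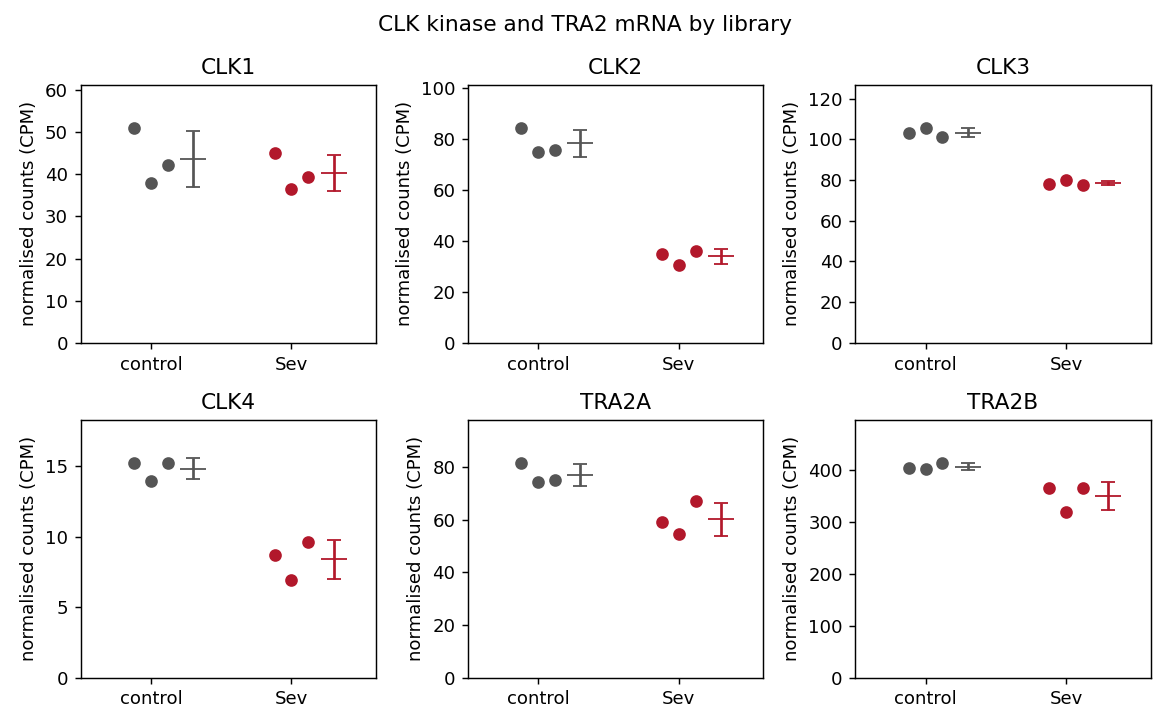
Normalised counts (CPM, vertical axis from 0) of the 4 CLK kinases and both TRA2 genes in each library, with points for libraries and bars for mean ± SD (n = 3). Control and Sev points are apart for CLK2, CLK3, CLK4, TRA2A and TRA2B and overlap for CLK1.

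TRA2A and TRA2B bind purine-rich GAA repeats in exons and activate their inclusion. TRA2A was at 81.7, 74.2 and 75.003 CPM in control and 59.1, 54.5 and 67.0 CPM in Sev. The groups did not overlap, and Sev 3 lay nearest to control. TRA2A fell by 0.35 on the log2 scale (SE 0.0986, edgeR adjusted p = 0.0213), but the call was lost without control 1, control 3, Sev 1 or Sev 2, at adjusted p = 0.0624, 0.0526, 0.0756 and 0.0515.

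TRA2B, the more abundant paralog, was at 404, 402 and 415 CPM in control and 366, 319 and 366 CPM in Sev. These groups were separate too, with Sev 2 the lowest. The log2 fold change of -0.21 (SE 0.0821, edgeR adjusted p = 0.0663) missed the threshold, and it passed with library size as the only scaling (-0.35, adjusted p = 0.0154). TRA2B took 58.7% ± 1.5 of the TRA2 FPKM in control and 61.1% ± 1.5 in Sev, with overlap.

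Of the 12 SR proteins, SRSF2, SRSF4, SRSF6, SRSF8 and SRSF10 rose, SRSF12 fell, and SRSF1, SRSF3, SRSF5, SRSF7, SRSF9 and SRSF11 were not called. SRSF10, which is dephosphorylated on heat shock and in mitosis and then represses splicing, had the smallest p of all members that rose. It was at 115, 123 and 107 CPM in control and 196, 209 and 213 CPM in Sev, and all Sev libraries were high. The level rose 1.79-fold (log2 fold change 0.84, SE 0.0821, edgeR adjusted p = 0.000297).

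SRSF4, a large SR protein with a long arginine-serine domain, was at 124, 134 and 141 CPM in control and 243, 223 and 223 CPM in Sev. The groups lay far apart relative to their spread. It rose 1.73-fold (log2 fold change 0.79, SE 0.0821, edgeR adjusted p = 0.000372). SRSF6, a close relative with the same domain layout, was at 136, 170.3 and 161 CPM in control and 234, 237 and 255 CPM in Sev. Control 1 was its lowest library and Sev 3 its highest. It rose 1.55-fold (log2 fold change 0.63, SE 0.0982, edgeR adjusted p = 0.00182).

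SRSF2 (also SC35), which marks nuclear speckles and binds exonic enhancers, varied most among the called SR proteins in control, at 61.5, 81.5 and 41.2 CPM, and was at 105, 115 and 121 CPM in Sev. The groups did not overlap, and control 3 was the lowest. It rose 1.85-fold (log2 fold change 0.89, SE 0.217, edgeR adjusted p = 0.0127), and the log2 fold change ranged from 0.66 to 1.14 as single libraries were left out. MFSD11 on the opposite strand covers 36.7% of its annotated exon bases, and whether the counting used strand is not given in the sources used here. SRSF8, which arose by retroposition of SRSF2, rose by a log2 fold change of 0.50 (edgeR adjusted p = 0.0118), from 25.8 ± 3.74 to 36.4 ± 1.33 CPM.

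SRSF12, a scarce relative of SRSF10, went the other way. It had 51, 38 and 49 counts in control 1 to 3 and 10, 10 and 9 counts in Sev 1 to 3, or 1.06 ± 0.13 and 0.253 ± 0.0223 CPM. Its groups were well separated although every value was low. The log2 fold change of -2.05 (SE 0.280, edgeR adjusted p = 0.00108) was the farthest from 0 of any member. The gene was left out where at least 10 counts were asked of every library and where FPKM had to reach 0.5.

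SRSF1, the SR protein with the highest mean FPKM over all 6 libraries, was at 209, 226 and 253 CPM in control and 268, 245 and 261 CPM in Sev. Control 3 lay within the range of the Sev libraries. Its log2 fold change was 0.17 (SE 0.0907, edgeR adjusted p = 0.165). An unnamed protein-coding entry on the same strand shares 56.6% of its annotated exon bases and held 92 to 198 counts per library. The other SR proteins that were not called ran from -0.12 for SRSF7 to 0.20 for SRSF9 on the log2 scale, with edgeR adjusted p between 0.0915 (SRSF11) and 0.886 (SRSF5). SRSF3 and SRSF7, both known for mRNA export through NXF1, had log2 fold changes of 0.09 and -0.12. For SRSF9 and SRSF11 the groups were separate without a call, with Sev higher. GATC on the opposite strand covers 46.2% of the annotated exon bases of SRSF9.

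The order of SR levels per length changed at the top. In control SRSF1 (33.7 ± 2.98 FPKM) stood above SRSF6 (27.0 ± 2.51 FPKM) without overlap. In Sev SRSF6 (38.1 ± 2.89 FPKM) had the higher mean and SRSF1 (34.4 ± 2.51 FPKM) followed, with the lowest SRSF6 library at 36.0 and the highest SRSF1 library at 35.9 FPKM, so that these neighbours barely parted. SRSF2 was the sixth by mean in control and the third in Sev, with 17.3 FPKM in control and 29.01 FPKM in Sev. Its libraries overlapped those of its neighbours SRSF7 and SRSF11 in control and of SRSF1 in Sev, so these ranks are not resolved. As shares of the SR sum, SRSF6 made up 14.1% ± 0.97 in control and 16.9% ± 0.36 in Sev, and SRSF1 17.7% ± 1.9 and 15.3% ± 0.61 (SD, n = 3), both without overlap. This order rests on the lengths behind the deposited FPKM (7.14 kb for SRSF1 and 6.04 kb for SRSF6), and by counts alone SRSF1 had the higher mean in both groups.

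**Figure D3:**
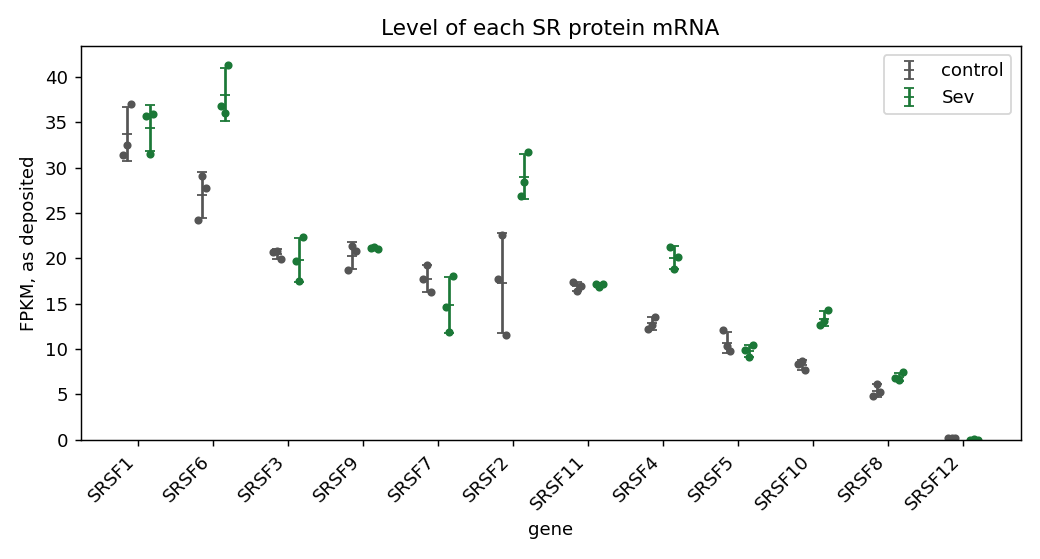
Deposited FPKM (vertical axis from 0) of the 12 SR protein genes in each library, ordered by the control mean, with points for libraries and bars for mean ± SD (n = 3). SRSF6, SRSF2, SRSF4 and SRSF10 sit higher in Sev, and SRSF1 has overlapping groups.

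The hnRNPs that were called all rose. HNRNPC binds uridine tracts and keeps cryptic exons out. It was at 291, 238 and 211 CPM in control and 420.0, 369 and 427 CPM in Sev. The groups were separate, with control 1 the highest of its group. It rose 1.64-fold (log2 fold change 0.72, SE 0.127, edgeR adjusted p = 0.00329). Pseudogenes named for HNRNPC held 2.41% of the summed counts, and reads could be split between them.

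HNRNPDL, which represses its own expression through a cassette exon in its transcript, was at 128, 144 and 128 CPM in control and 189.7, 191 and 214 CPM in Sev. All Sev libraries were above control 2, the highest of the control group. It rose 1.49-fold (log2 fold change 0.57, SE 0.0875, edgeR adjusted p = 0.00173). HNRNPM, which favours exon skipping at GU-rich sites, was at 101, 123 and 104 CPM in control and 163, 163 and 158 CPM in Sev. These groups were separate as well. It rose 1.47-fold (log2 fold change 0.56, SE 0.0919, edgeR adjusted p = 0.00238), and 3.78% of its summed counts were in pseudogenes.

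HNRNPK, a KH-domain protein that binds cytidine tracts, had the highest mean FPKM of all hnRNPs. It was at 358, 415 and 392 CPM in control and 534, 539 and 536 CPM in Sev. The Sev libraries were nearly identical and lay above all controls. It rose 1.38-fold (log2 fold change 0.47, SE 0.0809, edgeR adjusted p = 0.00303). In FPKM it went from 65.1 ± 3.44 to 81.4 ± 2.57, and its share of the hnRNP sum from 10.2% ± 0.24 to 11.3% ± 0.22 (SD, n = 3).

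The other 8 called hnRNPs rose by log2 fold changes of 0.49 (HNRNPL), 0.46 (HNRNPUL1), 0.42 (HNRNPR), 0.41 (HNRNPAB), 0.40 (HNRNPF), 0.31 (HNRNPD), 0.31 (HNRNPA0) and 0.30 (HNRNPH3), with edgeR adjusted p from 0.00255 to 0.0376. HNRNPL binds CA repeats, HNRNPF and HNRNPH3 bind guanine-rich elements, and HNRNPD (AUF1) acts on AU-rich mRNA decay. For all of them the groups were separate. HNRNPD and HNRNPH3 each kept the call in 1 of 6 fits that left out a library, HNRNPA0 in 2 and HNRNPAB in 4, while their log2 fold changes stayed above 0 (0.26 to 0.41 for HNRNPD, 0.21 to 0.34 for HNRNPH3, 0.22 to 0.36 for HNRNPA0 and 0.31 to 0.50 for HNRNPAB). With library size as the only scaling, the log2 fold changes were 0.18 for HNRNPD, 0.16 for HNRNPH3 and 0.17 for HNRNPA0 (edgeR adjusted p = 0.195, 0.26 and 0.134). Pseudogenes held 1.89% of the summed counts of HNRNPR.

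Of the hnRNPs that were not called, several are core particle proteins. HNRNPA1, HNRNPA2B1 and HNRNPA3, among the most abundant RNA-binding proteins of the nucleus, had log2 fold changes of 0.17, 0.04 and -0.14, with edgeR adjusted p of 0.121, 0.677 and 0.173. HNRNPA3 was at 238, 275 and 249.9 CPM in control and 228, 228 and 234 CPM in Sev, separate but close. With library size as the only scaling its log2 fold change was -0.28 (edgeR adjusted p = 0.0164), a call in the lower direction. Its share of the hnRNP FPKM was 5.62% ± 0.03 in control and 4.08% ± 0.013 in Sev (SD, n = 3), and that of HNRNPA2B1 was 7.90% ± 0.19 and 6.53% ± 0.11. Pseudogenes, 74 of them for HNRNPA1, held 19.0% of the summed counts of HNRNPA1 and 8.503% of those of HNRNPA3, and both are uncertain to that extent. Adding the pseudogene counts to their genes changed none of the 22 calls.

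HNRNPU, a scaffold-attachment protein, had a log2 fold change of -0.05, HNRNPUL2 -0.03, HNRNPH2 -0.08, HNRNPLL 0.02 and HNRNPH1 0.12. HNRNPA1L2 was at 10.8, 9.72 and 1.57 CPM in control and 13.5, 11.8 and 13.1 CPM in Sev. Control 3 held 76 counts of it, against 456 and 385 in the other controls. The log2 fold change of 0.80 (SE 0.560, edgeR adjusted p = 0.278) had the second largest SE among members, and it was 0.31 without control 3 and 1.18 without control 1. HNRNPA1L3 and the readthrough gene HNRNPUL2-BSCL2 ranged from 3.17 to 12.5 and from 1.89 to 15.5 CPM over the libraries with overlapping groups. Exons of HNRNPUL2-BSCL2 overlap those of HNRNPUL2 and BSCL2 on the same strand. HNRNPA1L2 and HNRNPA1L3 were not counted among the pseudogenes of HNRNPA1. Whether reads were split between HNRNPA1 and these genes was not tested.

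**Figure D4:**
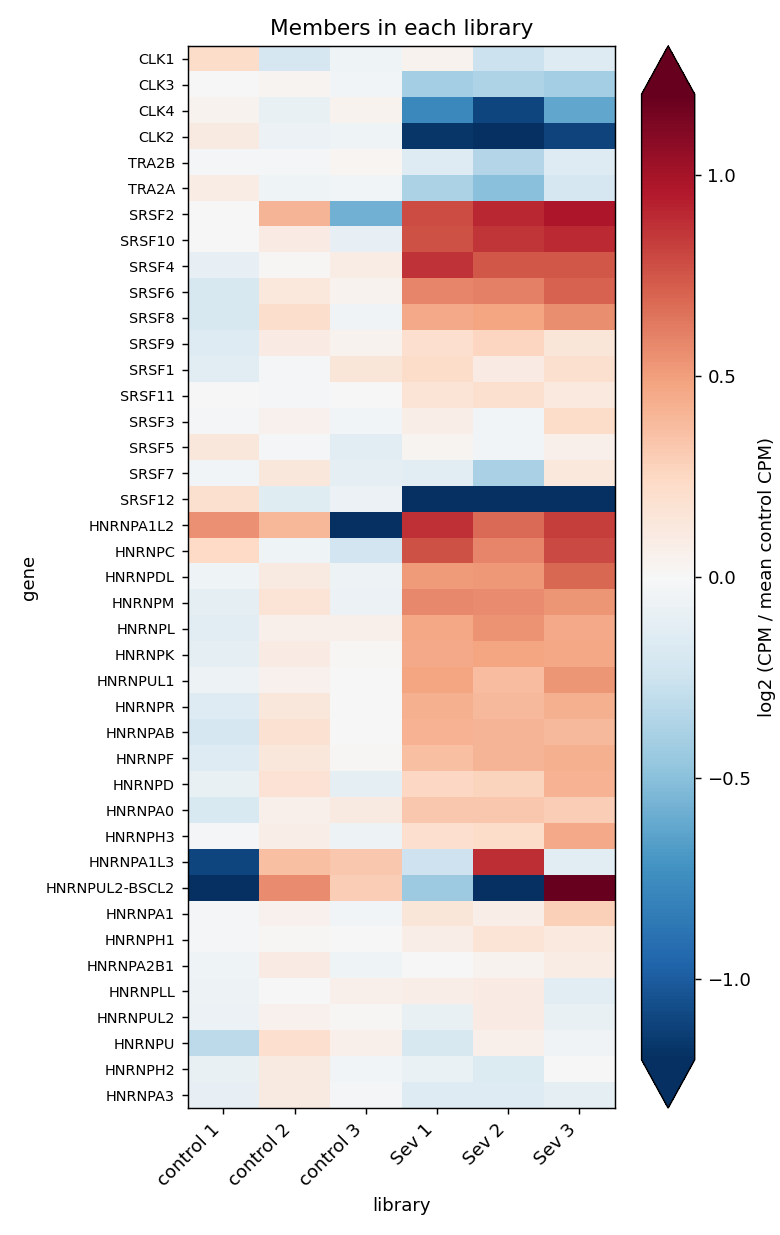
Log2 ratio of each library's CPM to the mean control CPM (colour scale) for the 41 tested members (vertical axis) in the 6 libraries (horizontal axis). CLK2, CLK4 and SRSF12 are low in all Sev libraries, the SR and hnRNP genes that rose are high in all of them, and HNRNPA1L2, HNRNPA1L3 and HNRNPUL2-BSCL2 differ between libraries of a group.

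Other genes of the splicing pathway were taken from 6 lists written from general knowledge. Of 15 other kinases, phosphatase subunits and transport factors of splicing proteins, 6 rose and 4 fell (median log2 fold change 0.20). DYRK1A, a nuclear kinase that phosphorylates splicing factors, rose by 0.90, the mRNA export receptor NXF1 by 0.74 and the import receptor TNPO1 by 0.56 on the log2 scale (edgeR adjusted p = 0.000208, 0.0018 and 0.00118). TNPO3, the other import receptor of the list, was not called (log2 fold change 0.10, edgeR adjusted p = 0.274). SRPK3, a muscle-type SR kinase, had a log2 fold change of -0.98, DYRK1B of -0.71 and the phosphatase subunit PPP1CB of -0.26 (edgeR adjusted p = 0.00896, 0.00878 and 0.0243). The other catalytic subunits of that phosphatase, PPP1CC and PPP1CA, rose by 0.56 and 0.43 (edgeR adjusted p = 0.00216 and 0.0053).

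SR-related proteins had 17 of 33 tested members higher and 4 lower, with a median of 0.36. The coactivator SRRM1 rose by 0.80, RBM25 by 0.79 and SRRM3 by 0.74 on the log2 scale. RSRP1 fell from 29.3 ± 1.74 to 7.52 ± 1.83 CPM (SD, n = 3), a log2 fold change of -1.96 (edgeR adjusted p = 0.000265), and CCNL1 and ARGLU1 fell by 0.37 and 0.33. Other hnRNP-type proteins had 13 of 19 higher and 1 lower, with a median of 0.38. KHSRP rose by 0.87, the polypyrimidine tract binding protein PTBP1 by 0.75 and RALY by 0.50, while TAF15 fell by 0.37.

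Core spliceosome proteins had 30 of 51 higher and 1 lower, with a median of 0.37. The Sm protein SNRPB rose by 0.91, and SF3B4 and SF3A2 of the branch-site complex by 0.87 and 0.80, while PRPF40B fell by 0.76. Other splicing regulators had 8 of 29 higher and 5 lower, with a median of 0.13. RBM20, known for titin splicing in heart, rose by 1.07, KHDRBS3 by 0.81 and SFPQ by 0.71, and the neuronal regulator NOVA1, TIA1 and RBM5 fell by 1.37, 0.65 and 0.55. Nonsense-mediated decay factors had 8 of 17 higher and 3 lower, with a median of 0.08. Among them SMG5 and MAGOH rose by 0.66 and 0.64, and UPF2, NBAS and CASC3 fell by 0.42, 0.38 and 0.29. These counts stand beside the 25% higher and 21% lower of all protein-coding genes, and no test of a list against other genes was made.

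**Figure D5:**
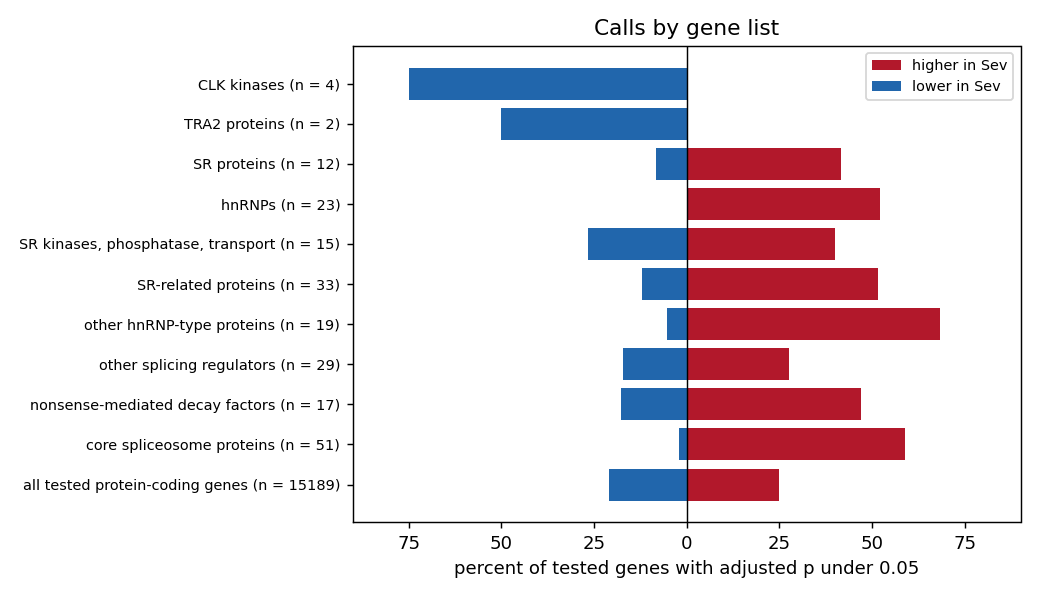
Percent of tested genes called higher in Sev (right) and lower in Sev (left) at an adjusted p under 0.05, for the 4 member families, the 6 lists of other splicing genes and all 15189 tested protein-coding genes, with the number tested beside each name. The left bar is long for the 4 CLK kinases at 75%, and hnRNPs and core spliceosome proteins have 52.2% and 58.8% on the right.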

How the data were processed

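RNA of U251 cells, 3 control and 3 Sev libraries, was depleted of ribosomal RNA and sequenced from strand-specific libraries. The paper names no selection for polyadenylated RNA. The authors deposited raw whole-number counts per gene and FPKM values of the same rows. The submitters' processing notes name bcl2fastq 2.19, featureCounts and the build hg18; the annotation counted and the use of strand in counting are not given in the sources used here. Dividing counts by FPKM gave a gene length that varied by at most 2% between libraries for 13255 of 13668 rows checked, so the deposited FPKM follow library totals. Of the identifiers, 60295 matched a symbol and 58457 GENCODE 29 (GRCh38), from which gene positions are given. Where RefSeq listed several promoter windows of a printed gene, the one with most GENCODE transcript starts nearby was used.

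Counts were filtered with filterByExpr, scaled by TMM and tested with edgeR 4.0.16 (glmQLFit, glmQLFTest) in R 4.3.3, without covariates, adjusted by Benjamini-Hochberg over 27514 features. CPM values are TMM-normalised, except the marker sums, which were scaled by library size alone. On simulated data with 200 changed genes among 26754, 82.5% were recovered. The changes set there were larger than those of most called members, and very scarce genes were left unchanged. That rate therefore does not carry over to the members. Described with values per library were the CLK and TRA2 genes, SR proteins and hnRNPs called with a log2 fold change past 0.5, and those with the highest FPKM and the smallest p in each direction. From each list up to 3 genes per direction were named with their log2 fold change. Results for some genes of the lists are not reported here. SRSF8, HNRNPA1L2, HNRNPA3, HNRNPA1L3, HNRNPUL2-BSCL2, PPP1CC, PPP1CA and TNPO3 were added after their values were seen. Members and lists were chosen with earlier results of these data known.

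Alternatives were DESeq2 1.42.0 (size factors, Wald test), library size only, no filter, a minimum of 10 counts per library, a block on replicate number, leaving out single libraries, pseudogene counts added, and limma 3.58.1 on log2(FPKM + 1) or log2(FPKM + 0.1) with a minimum FPKM of 0.5 in 3 libraries, the former also without it. Replicate pairs of a group differed beyond counting noise for 51.6% to 69.9% of 13215 genes. Precision is limited by 3 libraries per group.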

Additional observations from a re-analysis of the deposited data

How the results depend on the processing

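Of the 22 calls among the members, 13 held under all 16 alternatives (10 higher, 3 lower) and 17 in all 6 fits that left out a library. No member's call turned to the opposite direction under any of the 16. With library size only, the median of all features was -0.15 instead of -0.01 and that of the members 0.059. On deposited FPKM, the median of the members was 0.043 at log2(FPKM + 1), 0.044 at log2(FPKM + 0.1) and 0.029 at log2(FPKM + 1) without the filter, where 10 members were called higher. The features called higher were 3676 and 3623 with the filter at a pseudocount of 1 and of 0.1, and those called lower were 6709 and 6530. Without that filter SRSF2 was among the members that lost their call (limma adjusted p = 0.058), and TRA2B and HNRNPA3 were called lower in all FPKM fits and with library size only. Leaving out a library gave 4780 to 5709 features higher and 4438 to 5521 lower, 13 to 16 members higher and 4 to 5 lower, and a median over the members of 0.119 to 0.246. The groups share replicate numbers, but same-numbered libraries did not deviate together (r = -0.007, 0.004 and 0.027), and no source pairs them. With the replicate number as a block, 19 of the 22 calls were kept, with a median of 0.174 over the members. HNRNPA0, HNRNPD and HNRNPH3 lost theirs (edgeR adjusted p = 0.0512, 0.0674 and 0.0816), as they did with library size only, without an expression filter and in all FPKM fits. SRSF12, at 9 to 51 counts, is limited by depth.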
